A study of Oryza sativa with 12 samples.

Results

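Nitrate reduction, ammonium transport and glutamate synthesis were followed in rice shoots through 4 genes, GLT2, NIA1, AMT2-1 and AMT3-2. Every probe set that the array annotation assigns to these genes by symbol or synonym was read, which gave 5 of the 57194 probe sets tested and 4 of 17905 genes. GLT2 and AMT2-1 had been selected on their measured log2 difference between alkali and control in the genotype Jijing88, and NIA1 and AMT3-2 on that in K83. Values from those comparisons, and from comparisons that share arrays with them, are therefore given as descriptions with no test. The alkali effect in the other genotype was measured in arrays that the choice of the gene did not rest on, and there the test is given.

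Whole shoots of 2 Oryza sativa genotypes, Jijing88 and K83, were compared at 24 h after seedlings aged 7 days had been moved into new hydroponic medium, either plain (control) or with alkali salts at 50 mM (alkali). The labels give neither a pedigree for either genotype, nor the salts used, nor the pH. No group received a neutral salt, so that alkalinity, salt and osmotic stress cannot be told apart. Each of the 4 groups (Jijing88 control, Jijing88 alkali, K83 control and K83 alkali) had 3 Affymetrix arrays, labelled biological replicates, each from a pool of 10 shoots. Values are log2 RMA signals, in which each probe set has its own scale, so that levels are compared between samples and never between genes. In whole shoots, fewer cells of a type and less RNA per cell cannot be told apart.

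Plants reduce nitrate to nitrite with nitrate reductase in the cytosol, and nitrite to ammonium in the plastid. Ammonium also enters cells through AMT transporters and is released inside leaves by photorespiration and protein breakdown. Glutamine synthetase binds it into glutamine, and glutamate synthase (GOGAT) passes the amide group on to 2-oxoglutarate, giving glutamate. Leaves use a ferredoxin-dependent GOGAT in the chloroplast for most of this traffic, and an NADH-dependent GOGAT that is found mostly in vascular and growing tissue.

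The 12 arrays were alike in overall scale. Array medians lay between 5.12 and 5.18, and arrays of the same group correlated at 0.993 to 0.997 over the probe sets, which do not count as replicates. The 5 measured shoot markers of 9 listed (RBCS, CAB2R, LHCP, FBA1 and RCA) had signals of 12.61 to 14.66 in every array, and their mean per array was 13.42 to 13.59 in Jijing88 control, 13.58 to 13.66 in Jijing88 alkali, 13.61 to 13.67 in K83 control and 13.50 to 13.62 in K83 alkali. CAB2R and LHCP, chlorophyll-binding protein genes, rose in Jijing88 by 0.49 and 0.48 (limma, adjusted p = 0.00455 and 0.00225) and differed by -0.14 and -0.16 in K83, with a difference between the alkali effects of -0.63 and -0.65 (limma, adjusted p = 0.0476 and 0.0269). The 5 measured root markers of 7 listed had means of 7.10 to 7.46, 7.31 to 7.54, 7.43 to 7.51 and 7.12 to 7.25 in the same order, with SHR1 and SCR1 falling in K83 and NAAT1 rising in Jijing88. The root silicon transporter genes LSI1 and LSI2 lay at 8.83 to 9.76 and 3.53 to 5.47, and 4 of the 5 root markers lay above the array medians. Of 4 seed markers, WAXY and GLUA2 rose in Jijing88, and the 2 measured meristem markers were not called. The part of these marker shifts in the results below was not tested.

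NIA1 (LOC4345795) encodes nitrate reductase, the first enzyme of nitrate assimilation, on chromosome 8 from 23172769 to 23178134 in the RefSeq assembly ASM3414082v1. Its brighter probe set read 8.73, 8.73 and 9.21 in Jijing88 control and 8.43, 8.08 and 8.35 in Jijing88 alkali. In K83 it read 9.51, 9.22 and 9.58 in control and 7.55, 7.54 and 7.46 under alkali. It was the member that was lower under alkali, in both genotypes and with no overlap between media. K83 had the highest arrays in control and the lowest under alkali.

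In Jijing88, where NIA1 had not been chosen, the gene fell by 0.60 on the log2 scale, from 8.89 ± 0.27 to 8.29 ± 0.18 (SD, n = 3). The 95% interval was -0.91 to -0.30 (limma, adjusted p = 0.0169). The call was lost without Jijing88 alkali replicate 2 (-0.50, adjusted p = 0.0674) and when the 6 Jijing88 arrays were fitted alone (adjusted p = 0.0616). In K83 the means were 9.43 ± 0.19 and 7.52 ± 0.05 (SD, n = 3), a difference of -1.92 that stayed between -2.03 and -1.84 without any 1 array. K83 minus Jijing88 was 0.55 in control and -0.77 under alkali, so that the order of the genotypes turned.

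A further NIA1 probe set gave no such picture. It read 4.70 to 5.08 over the 12 arrays, and its arrays overlapped in every comparison. Its 4 group means, 4.83 to 4.88, lay below the median of the array medians (5.16). That may be close to background, which was not estimated. The difference between media was -0.04 in Jijing88 (limma, adjusted p = 0.899) and -0.01 in K83. A value averaged over both probe sets would be -0.32 in Jijing88 and -0.96 in K83.

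AMT2-1 (LOC4339064) encodes an ammonium transporter of the MEP-like branch of the family and lies on chromosome 5, from 23122901 to 23127052. Its signal was 8.41, 8.02 and 8.38 in Jijing88 control and 9.92, 9.42 and 9.72 in Jijing88 alkali. In K83 it was 7.42, 7.26 and 7.27 in control and 8.83, 8.51 and 8.70 under alkali. The 4 groups formed 4 separate bands, in the order Jijing88 alkali, K83 alkali, Jijing88 control and K83 control.

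In K83, where AMT2-1 had not been chosen, it rose from 7.32 ± 0.09 to 8.68 ± 0.16 (SD, n = 3), or 2.58-fold. The log2 rise was 1.37 with a 95% interval of 1.06 to 1.67 (limma, adjusted p = 0.000117), and it stayed between 1.29 and 1.45 without any 1 array. In Jijing88 the means were 8.27 ± 0.22 and 9.69 ± 0.25 (SD, n = 3), a difference of 1.42. The response in K83 minus that in Jijing88 was -0.05, given as a description. K83 lay below Jijing88 by a similar distance in both media, by 0.96 in control and by 1.01 under alkali. Whether the probes match both genotypes equally was not tested.

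AMT3-2 (LOC4334717) is a further ammonium transporter gene of the MEP-like branch, on chromosome 3 from 36211070 to 36214766. Its only probe set is of the _x_at type, some probes of which can match other transcripts, so that signal from those may be included. The signal was 8.17, 8.30 and 9.51 in Jijing88 control and 10.07, 9.37 and 9.48 in Jijing88 alkali. Control replicate 3 thus lay among the alkali arrays. In K83 the signal was 7.22, 6.98 and 6.93 in control and 8.96, 8.70 and 8.79 under alkali, with a wide gap between the media.

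In Jijing88, the genotype in which AMT3-2 had not been chosen, the means were 8.66 ± 0.74 and 9.64 ± 0.38 (SD, n = 3). The log2 rise was 0.98 with a 95% interval of 0.37 to 1.58 and only just passed (limma, adjusted p = 0.0486). It did not pass in 11 of the 12 fits without 1 array (adjusted p = 0.0562 to 0.198), whereas without Jijing88 control replicate 3 it was 1.40 (adjusted p = 0.000482). In K83 the means were 7.04 ± 0.15 and 8.81 ± 0.13 (SD, n = 3), a difference of 1.77. K83 was lower by 1.62 in control and by 0.82 under alkali, with no overlap between the genotypes in either medium.

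GLT2 (LOC4339561) encodes NADH-dependent glutamate synthase and lies on chromosome 5, from 27791938 to 27806279. Its probe set read 7.26, 5.91 and 5.42 in Jijing88 control and 9.19, 9.06 and 9.20 in Jijing88 alkali. In K83 it read 5.70, 6.04 and 5.67 in control and 8.32, 8.07 and 8.22 under alkali. All 6 alkali arrays lay above all 6 control arrays. The control arrays of Jijing88 were spread widely, with replicate 1 well above the other replicates, while its alkali arrays nearly coincided.

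In K83, whose alkali effect was not the one GLT2 was selected on, GLT2 rose from 5.80 ± 0.21 to 8.20 ± 0.12 (SD, n = 3). That is 5.29-fold, or 2.40 on the log2 scale with a 95% interval of 1.70 to 3.10 (limma, adjusted p = 0.00081), and it ranked 48 among the 57194 probe sets by size of rise. In Jijing88 the means were 6.20 ± 0.96 and 9.15 ± 0.08 (SD, n = 3), a difference of 2.95, given as a description. Without 1 array at a time that difference ranged from 2.56 to 3.49, and the K83 rise from 2.33 to 2.52. Ordered by level, Jijing88 alkali came first, then K83 alkali, with no overlap between their arrays, then Jijing88 control and K83 control, whose arrays overlapped. K83 was lower than Jijing88 by 0.39 in control and by 0.94 under alkali.

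Jijing88 control replicate 3 had the lowest weight of the 12 arrays when weights were estimated from the data (0.464, beside 0.70 to 1.77 in the others). In that array AMT3-2 and NIA1 had their highest signal of the group and GLT2 its lowest. The array's probe set for large-subunit ribosomal RNA read 9.68, 7.87 and 9.44 in the 3 alkali arrays of Jijing88, against 7.85 to 8.21 in Jijing88 control. GLT2, AMT2-1, AMT3-2 and NIA1 all had their lowest Jijing88 alkali signal in replicate 2. Actin probe sets at the 3′ end exceeded those at the 5′ end, a measure of how intact the RNA was, by 1.98 ± 0.15 in K83 control and 2.18 ± 0.08 in K83 alkali (SD, n = 3), and 2.27 ± 0.17 and 2.25 ± 0.28 in Jijing88 control and alkali. The part of these array differences in the results was not tested.

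**Figure D1:**
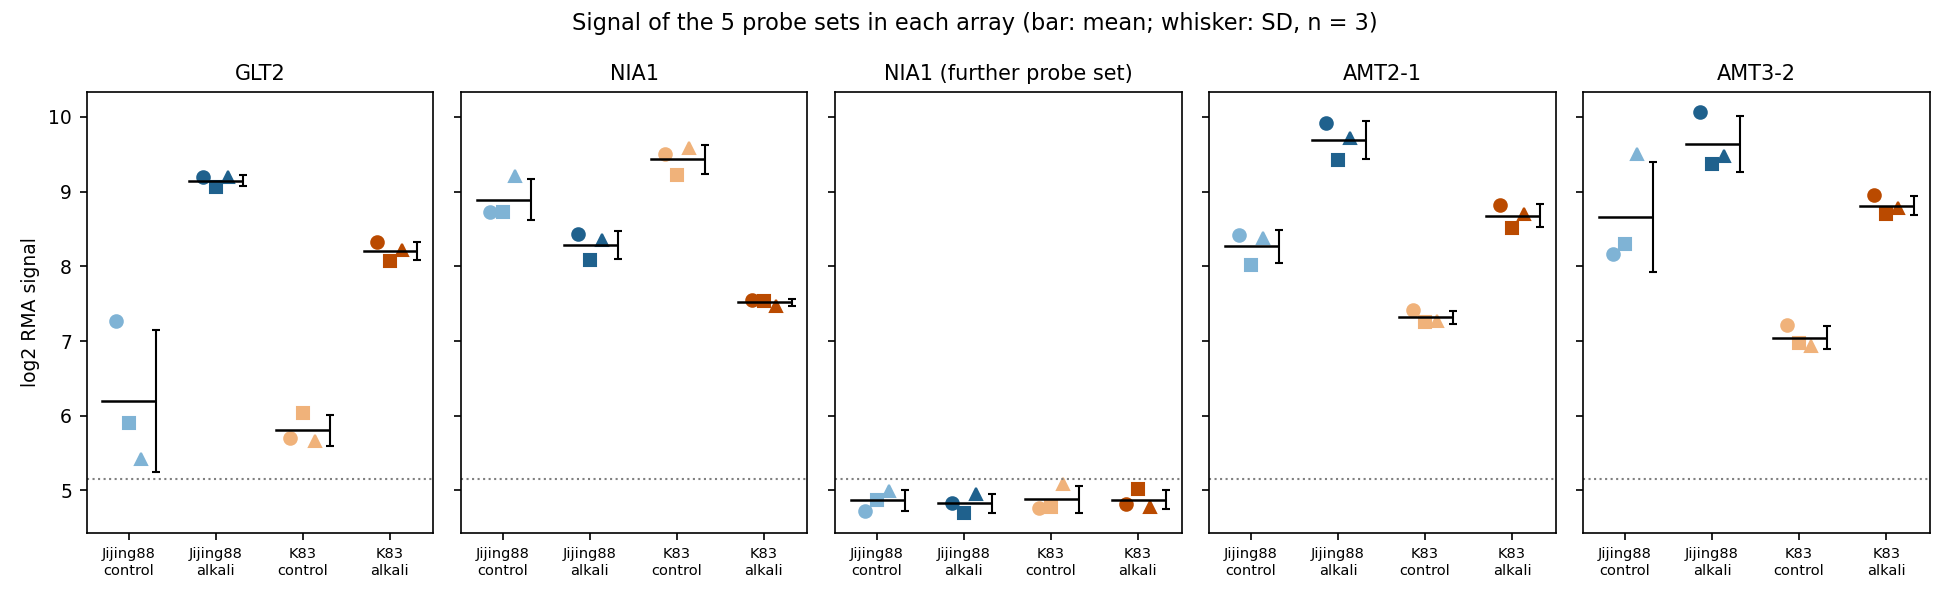
Log2 RMA signal (vertical axis) of the 5 probe sets in the 4 groups (horizontal axis); points are arrays (circle, square and triangle for replicates 1, 2 and 3), bars are group means, whiskers are the SD (n = 3), and the dotted line is the median of the array medians (5.16). GLT2, AMT2-1 and AMT3-2 sit higher under alkali and the brighter NIA1 probe set sits lower, while Jijing88 control replicate 3 of AMT3-2 (9.51) lies among the alkali arrays.

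The 4 genes were also compared by their profile, as the root mean square difference over the 12 arrays after each gene's own mean had been subtracted. The size of a gene's changes counts in this measure as well as their shape. Both ammonium transporter genes were the closest pair, at 0.38 on the log2 scale. GLT2 differed from AMT2-1 by 0.78 and from AMT3-2 by 1.03. NIA1 differed from the other members by 1.44 to 2.06. These are descriptions over arrays that all comparisons share.

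Of 2190 genes with a name and a signal above the array medians in at least 1 group, those most like each member were found by the same measure. Closest to AMT2-1 were HXK6, a hexokinase gene (0.22), CSLE1, a cellulose synthase-like gene (0.24), and MST3, a monosaccharide transporter gene (0.26). MST3 (0.31) was also among the nearest genes to AMT3-2, between YSL13, a yellow stripe-like transporter gene (0.27), and OsC3H2, a zinc finger protein gene (0.37). YSL13 differed between media by 0.83 in Jijing88 and by 1.45 in K83, beside 0.98 and 1.77 for AMT3-2.

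Closest to NIA1 were LOC4343984, listed as a bHLH gene (0.27), PIN5A, an auxin transporter gene (0.28), and CIPK1, a protein kinase gene (0.34). The difference between media was -0.38 in Jijing88 and -1.46 in K83 for LOC4343984, and -0.66 and -1.75 for PIN5A. GLT2 had no named gene as near, on a measure that is not scaled by a gene's spread. The SD over the 12 arrays was 1.51 for GLT2, 0.76 for NIA1, 0.90 for AMT2-1 and 1.05 for AMT3-2. Closest to GLT2 were the laccase gene LAC19 (0.715) and the MYB transcription factor genes JAMYB (0.76) and MYBAS1 (0.77). All had a smaller difference between media than GLT2 in both genotypes. LAC19 differed by 2.05 in Jijing88 and by 1.72 in K83.

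**Figure D2:**
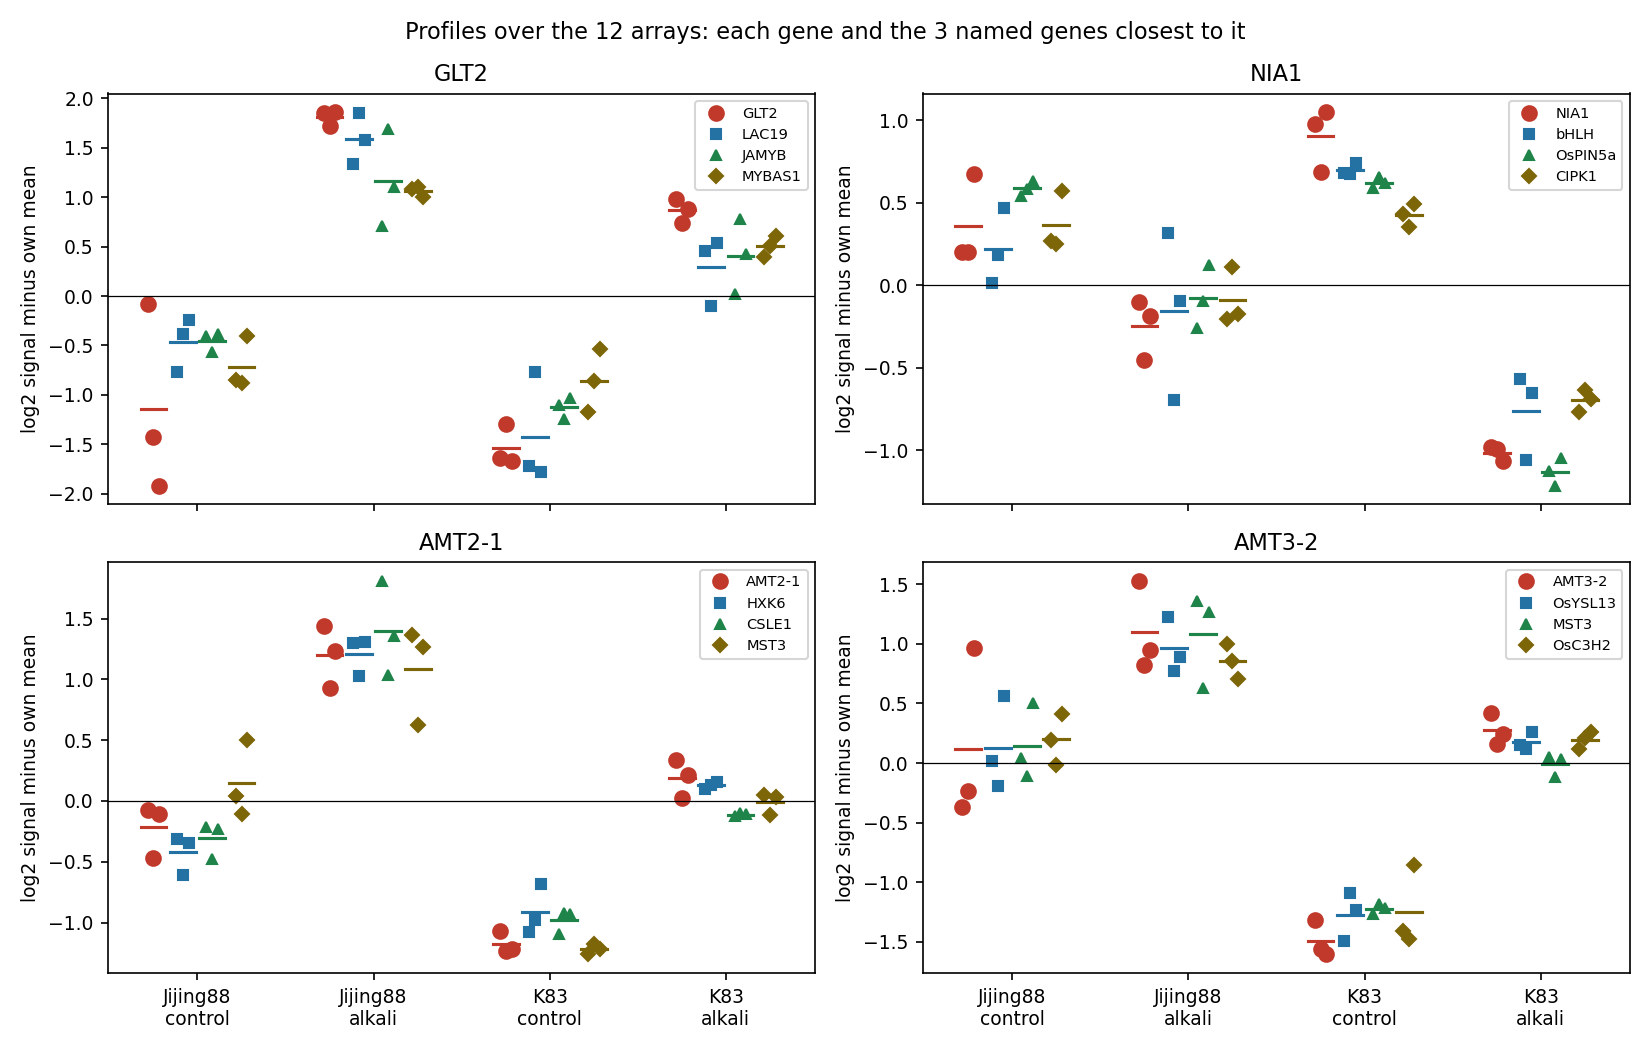
Log2 signal minus each gene's own mean over the 12 arrays (vertical axis) by group (horizontal axis) for each of the 4 genes (red circles) and the 3 named genes closest to it; points are arrays and short bars are group means. AMT2-1 and its closest genes lie close together in all groups (root mean square differences of 0.22 to 0.26), and those of GLT2 lie farther off (0.715 to 0.77).

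Other genes of the pathway were read from a list of 50 names of nitrogen genes, which matched 27 genes in the annotation, 23 of them not among the 4 genes above. Names without a match, and so not read, included NIA2, GLT1, the nitrite reductase gene NIR1, AMT4-1, AMT5-1, ASN1, ASN2 and all NRT1 and NPF names. Each was read from its brightest probe set, and 4 of the 23 lay below the array medians in every group. In Jijing88, 2 of the 23 rose (8.70%, against 8.22% of all 17905 genes) and 3 fell (against 7.36%). In K83, 1 rose (4.35%, against 5.04% of all genes) and 2 fell (8.70%, against 7.82%). The shares were thus near those of all genes, apart from the falls in Jijing88, which rest on 3 genes. The median difference between media of the 23 was -0.10 in Jijing88 and -0.04 in K83, beside -0.01 and -0.04 over all genes.

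Of the 6 other ammonium transporter genes matched, 1 rose and 1 fell in Jijing88, and none was called in K83. AMT1-2, of the high-affinity AMT1 branch (the annotation lists AMT1-3 as a synonym), read 5.29, 5.36 and 5.50 in Jijing88 control and 6.65, 5.86 and 6.10 under alkali, a rise of 0.82 (limma, adjusted p = 0.039). In K83 it was 5.42, 4.39 and 4.94 in control and 4.65, 4.73 and 4.54 under alkali, with a difference of -0.27 (limma, adjusted p = 0.567). Both K83 means, 4.91 and 4.64, lay below the array medians, perhaps close to background, which was not estimated. The K83 arrays overlapped between media, and the call in Jijing88 was lost in 9 of the 12 fits without 1 array (0.60 to 0.88, adjusted p = 0.0508 to 0.144), the exceptions being those without Jijing88 alkali replicate 2 or K83 control replicate 1 or 2.

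AMT3-3, a relative of AMT3-2, fell by 0.83 in Jijing88 (limma, adjusted p = 0.0411), the opposite direction to AMT3-2. It read 8.15, 7.86 and 8.51 in control and 7.65, 6.91 and 7.48 under alkali, without overlap. In K83 its difference was 0.29 (limma, adjusted p = 0.537), with overlapping arrays. The call in Jijing88 was lost without Jijing88 alkali replicate 2 or 3, Jijing88 control replicate 1 or 3, K83 alkali replicate 3 or K83 control replicate 1 (-0.61 to -0.89, adjusted p = 0.0526 to 0.146). It was also lost with array weights (-0.70, adjusted p = 0.0766), with only the Jijing88 arrays in the fit (adjusted p = 0.067) and with a trended robust prior (adjusted p = 0.0548).

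AMT1-1, whose Jijing88 control mean was 10.09, differed between media by -0.09 in Jijing88 (95% interval -0.49 to 0.32) and by -0.04 in K83 (limma, adjusted p = 0.857 and 0.942). AMT3-1 differed by -0.17 and 0.21 (limma, adjusted p = 0.356 and 0.225). AMT2-2 and AMT2-3, the relatives of AMT2-1, lay below the array medians in every group, with differences of -0.11 and 0.17 in Jijing88 and -0.08 and 0.17 in K83, none called by limma (adjusted p = 0.627 to 0.724).

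In the step after ammonium uptake, the changes were smaller than that of GLT2. GLT2 had been selected on its Jijing88 difference, so this is a description and no test. GLU, the ferredoxin-dependent glutamate synthase gene of the chloroplast, fell by 0.32 in Jijing88 (limma, adjusted p = 0.0322) from 12.97 ± 0.14 to 12.65 ± 0.05 (SD, n = 3). In K83 it was 13.09, 13.01 and 13.12 in control and 13.20 in each alkali array, a difference of 0.12 (limma, adjusted p = 0.462). On this probe set all alkali arrays thus lay below the controls in Jijing88 and above them in K83. The further GLU probe sets differed by -0.63 and -0.25 in Jijing88, with adjusted p of 0.0113 and 0.176 by limma. In K83 they differed by 0.06 and -0.03, with overlapping arrays (limma, adjusted p = 0.863 and 0.908). The call of the brightest was lost without any 1 of the Jijing88 alkali arrays, Jijing88 control replicate 1 or 2, or K83 alkali replicate 3 (-0.26 to -0.34, adjusted p = 0.0509 to 0.153), and with only the Jijing88 arrays in the fit (adjusted p = 0.13).

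Among glutamine synthetase genes, the cytosolic GLN1-3 rose in K83 by 0.75 (limma, adjusted p = 0.00152), from 4.52, 4.67 and 4.48 to 5.15, 5.34 and 5.44. Its signal lay below or near the array medians in all groups, perhaps close to background, which was not estimated. The cytosolic GLN1-2 fell in K83 by 0.45 (limma, adjusted p = 0.0262), from 11.14, 10.81 and 10.84 to 10.50, 10.40 and 10.55. GDH1, a glutamate dehydrogenase gene, fell in K83 by 0.46 (limma, adjusted p = 0.00979), from 10.82, 10.99 and 10.80 to 10.38, 10.38 and 10.47. In Jijing88 the same 3 genes differed by 0.35, -0.10 and -0.10, and none was called by limma (adjusted p = 0.0724, 0.686 and 0.637). The GLN1-2 call was lost without any 1 of the K83 alkali arrays or without K83 control replicate 1 (-0.34 to -0.48, adjusted p = 0.0617 to 0.107), and that of GDH1 without K83 control replicate 2 (-0.40, adjusted p = 0.0524).

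Of the regulators, NLP1, a NIN-like transcription factor gene of the nitrate response, fell in Jijing88 by 0.62 (limma, adjusted p = 0.00695), from 9.01, 9.19 and 9.04 to 8.25, 8.76 and 8.35. NIGT1, a nitrate-inducible repressor gene, rose there by 0.73 (limma, adjusted p = 0.0167), from 6.03, 5.85 and 5.66 to 6.19, 6.88 and 6.65. In K83 the differences were -0.12 and -0.07 (limma, adjusted p = 0.673 and 0.875), with overlapping arrays. The NLP1 call held in all 12 fits without 1 array, and that of NIGT1 was lost without replicate 2 or 3 of Jijing88 control or alkali (0.57 to 0.73, adjusted p = 0.0543 to 0.0658) and with only the Jijing88 arrays in the fit (adjusted p = 0.0507).

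**Figure D3:**
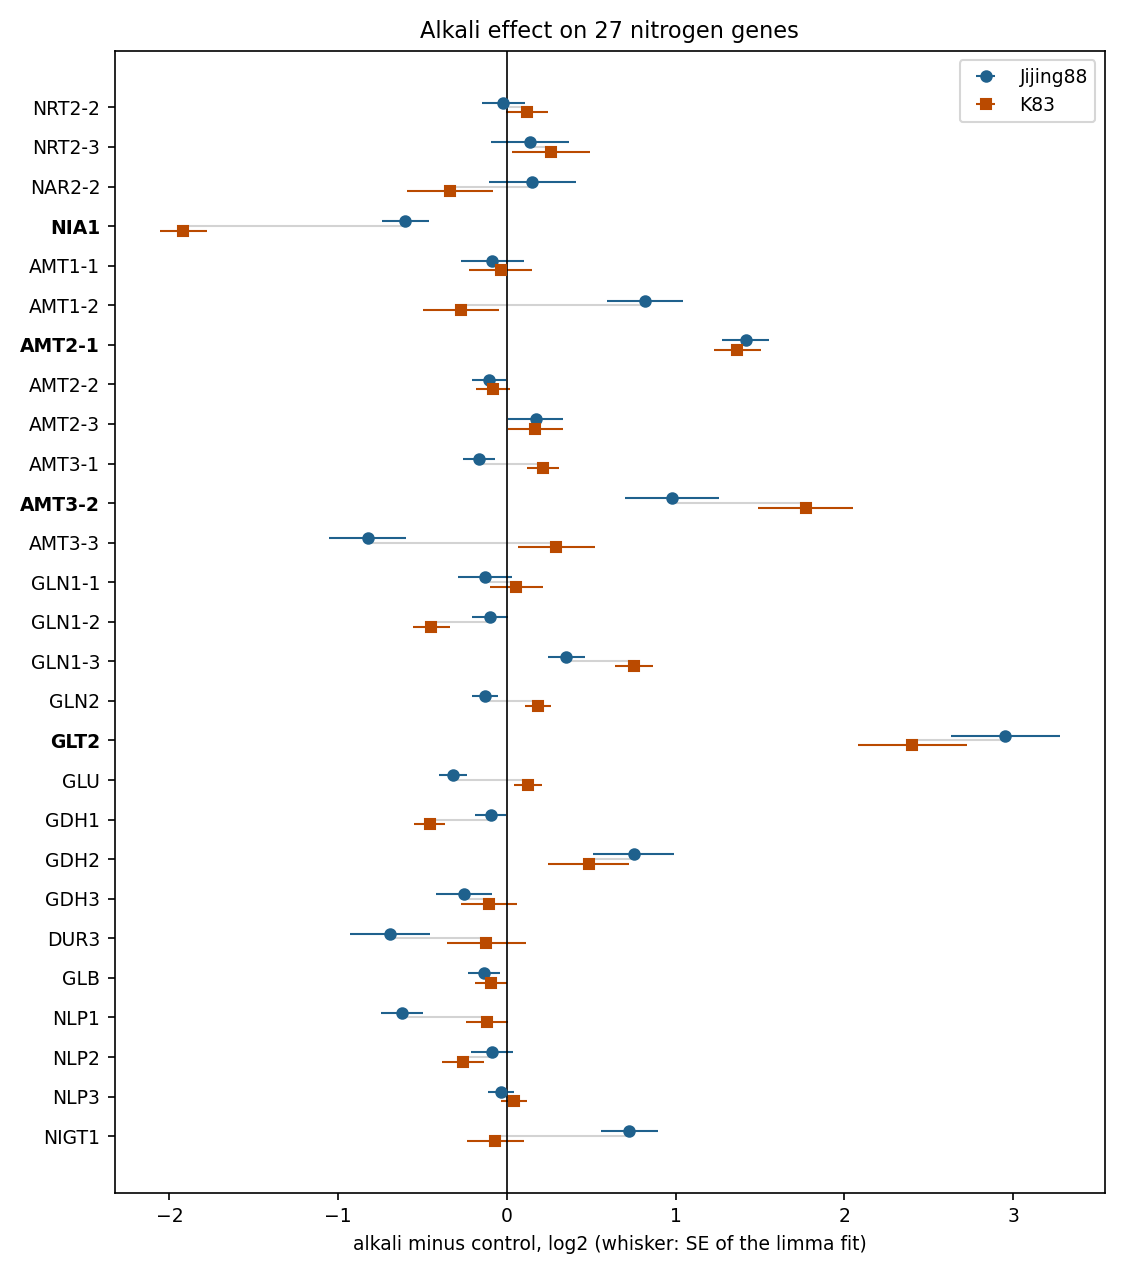
Alkali minus control on the log2 scale (horizontal axis) for the 27 nitrogen genes (rows; the 4 genes described first in bold) in Jijing88 (circles) and K83 (squares), with the SE of the limma fit as whiskers. GLT2 (2.95 and 2.40), AMT2-1 (1.42 and 1.37), AMT3-2 (0.98 and 1.77) and NIA1 (-0.60 and -1.92) are shown beside the other 23, which lie between -0.83 and 0.82. That range holds NIA1 in Jijing88 but no other value of the members. GLT2 and AMT2-1 had been selected on the Jijing88 value, and NIA1 and AMT3-2 on the K83 value, so the range is no test of the members.

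Whether the genotypes respond differently was tested in the same fit as the difference between both alkali effects. None of the 23 other genes was called by limma (1.03% of all genes were), with the smallest adjusted p at 0.115. The differences of K83 minus Jijing88 ran from -1.09 for AMT1-2 to 1.12 for AMT3-3. The calls made in only 1 genotype above are thus not shown to differ between the genotypes. For the 4 members this difference contains the comparison that chose them and is given with no test. It was -1.31 for NIA1, 0.79 for AMT3-2, -0.55 for GLT2 and -0.05 for AMT2-1.

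The genotypes were then compared within each medium. These are differences in signal, and whether the probes match both genotypes equally was not tested. In control medium, 6 of the 23 other genes were lower in K83 (26.1%, against 9.59% of all genes) and 2 were higher (8.70%, against 11.3%). AMT3-3 was lower by 1.77 (limma, adjusted p = 0.000177) and GLN1-2 by 0.68 (limma, adjusted p = 0.000926). NIGT1 was higher by 1.80 (limma, adjusted p = 1.17e-05), with 7.66, 7.75 and 7.53 in K83 control and 6.03, 5.85 and 5.66 in Jijing88 control. AMT2-1 and AMT3-2 lay in the direction of AMT3-3, at -0.96 and -1.62.

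Under alkali, 5 of the 23 were lower in K83 (21.7%, against 13.2% of all genes) and 6 were higher (26.1%, against 11.5%). AMT1-2 was lower by 1.56 (limma, adjusted p = 0.000394) and GLN1-2 by 1.03 (limma, adjusted p = 3.02e-05). The K83 alkali mean of AMT1-2, 4.64, lay below the array medians. NAR2-2 was also lower, at -1.79, as were NRT2-3 at -0.87 and GLB at -0.47 (limma, adjusted p = 0.000394, 0.0221 and 0.00361). The K83 alkali mean of NRT2-3, 4.92, lay below the array medians too. NIGT1 was higher, at 7.58 against 6.57 (limma, adjusted p = 0.00123), GLU by 0.55 (limma, adjusted p = 0.00063), NLP1 by 0.44 (limma, adjusted p = 0.0298) and GLN1-3 by 0.37 (limma, adjusted p = 0.0409). The last 2 calls were lost in 4 and 7 of the 12 fits without 1 array (adjusted p = 0.102 to 0.128 and 0.0533 to 0.162), and with only the alkali arrays in the fit (adjusted p = 0.0733 and 0.0541). That of GLN1-3 was also lost with median centring and with a trended robust prior (adjusted p = 0.0507 in both). The difference of AMT3-3, -0.65, no longer passed (limma, adjusted p = 0.08). Both genotype comparisons share arrays with the alkali effects and are not independent of them.

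**Figure D4:**
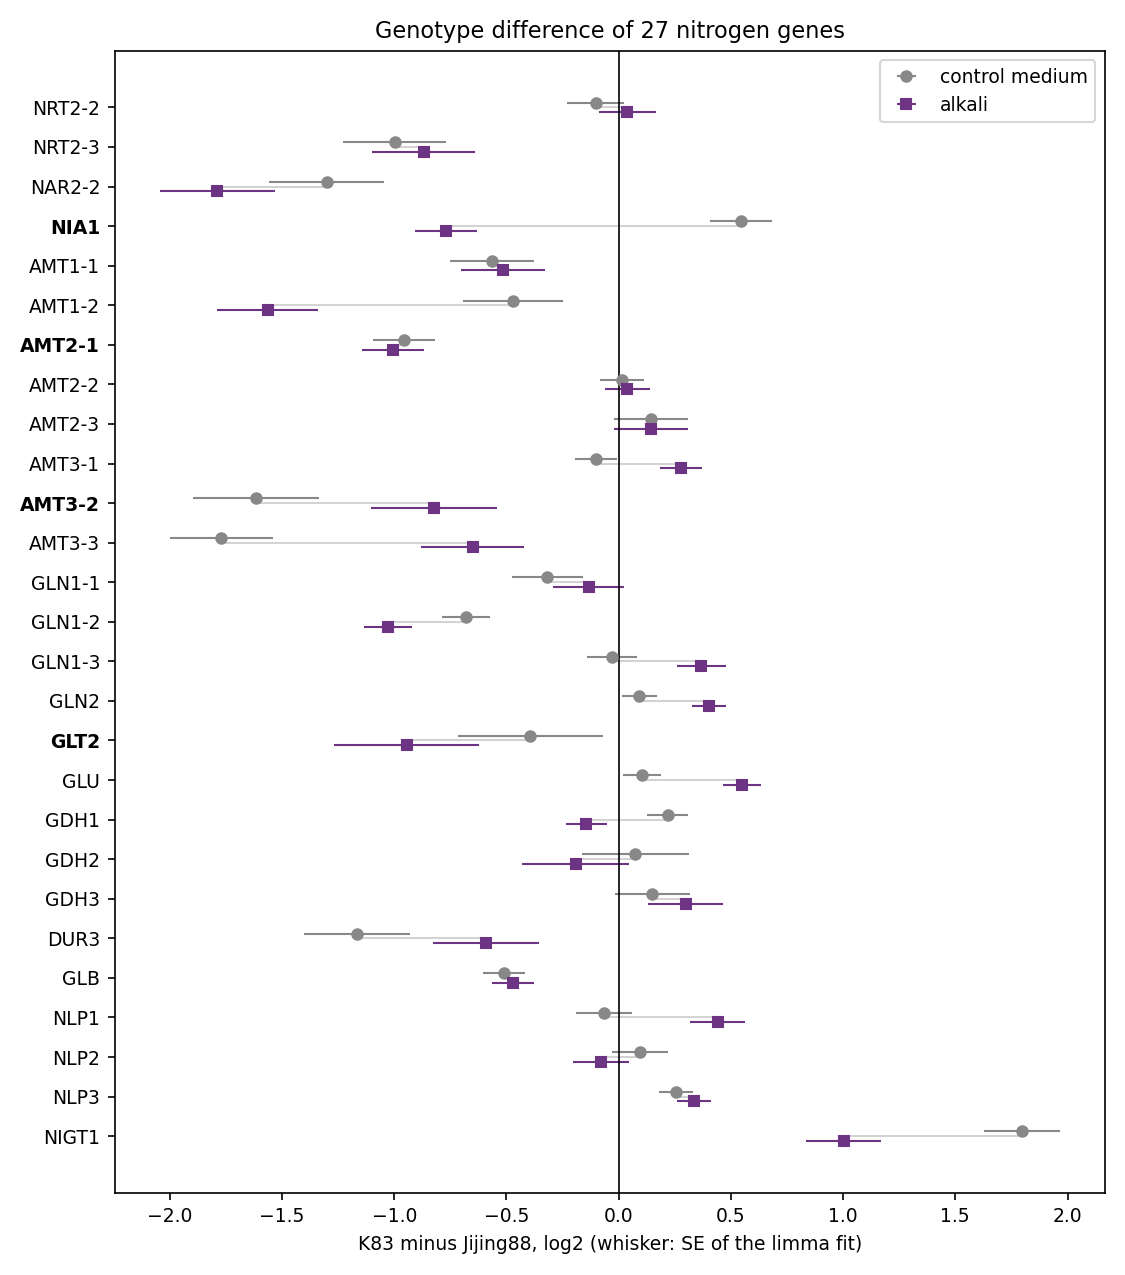
K83 minus Jijing88 on the log2 scale (horizontal axis) for the 27 nitrogen genes (rows; the 4 genes described first in bold) in control medium (grey circles) and under alkali (purple squares), with the SE of the limma fit as whiskers. AMT2-1 is lower in K83 by a similar amount in both media (-0.96 and -1.01), NIGT1 is higher in both (1.80 in control), and NIA1 changes side (0.55 and -0.77).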

How the data were processed

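The authors deposited 1 log2 signal per probe set and array. RMA and limma are listed, without version or role, per the submitters' processing notes. That the logarithm has base 2 was read from the values (2.74 to 14.66), since the sources used here do not give it. No further normalization was applied. Of 57381 probe sets, 187 controls were left out. Genes came from the array's annotation and the RefSeq table of assembly ASM3414082v1, in which 22436 probe sets have 1 gene, 95 have several and 34663 have none. Coordinates are those of that assembly, as the array table holds none. Where a gene has several probe sets, the brightest on average stands for it.

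Group means were fitted to all 12 arrays with limma 3.58.1 in R 4.3.3 (no covariates, 8 residual degrees of freedom, moderated variances), and 5 two-sided contrasts were each adjusted over the 57194 probe sets (Benjamini-Hochberg). An adjusted p under 0.05 is a call. The fit shares 1 spread over the 4 groups, and 3 arrays per group limit the precision. P-values measure the spread between arrays labelled as biological replicates. The fit was tested on simulated data.

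The members and the nitrogen list were chosen with earlier results of these data known. List names were matched by symbol or synonym, and synonyms that the annotation also gives to unrelated genes were dropped once it had been read. Named list genes are those called in at least 1 alkali effect and the relatives of the members, and 3 genes are named as most like each member. The remaining list genes lower in K83 are named beyond that rule. Replicate numbers recur across groups, but the labels do not say what they share. Deviations from group means correlated above 0.1 in 7 of 18 same-numbered pairs (-0.08 to 0.22). In replicate 1, every pair but Jijing88 control with Jijing88 alkali (-0.02) lay at 0.154 to 0.195. The main fit has no block, and a fit with the replicate number as a block was run as an alternative.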

Additional observations from a re-analysis of the deposited data

Results flagged for a closer look

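The alkali effects of NIA1 and GLU had unlike values in the genotypes. NIA1 differed by -1.31 on the log2 scale (K83 minus Jijing88), with all alkali arrays below the controls in both genotypes. This difference contains the K83 effect that NIA1 was selected on, and it is given as a description with no test. The brightest GLU probe set differed by 0.44, with all its alkali arrays below the controls in Jijing88 and above them in K83. The test of that difference did not pass (limma, adjusted p = 0.115), and on the further GLU probe sets, which differed by 0.69 and 0.22, the K83 arrays overlapped between media.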

How the results depend on the processing

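Of the tests reported for the 4 members, the K83 rises of GLT2 and AMT2-1 passed under every alternative run. The Jijing88 rise of AMT3-2 (0.98) did not pass with only the groups compared in the fit (limma, adjusted p = 0.155). With quantile normalization repeated it was a log2 rise of 0.94 and did not pass (limma, adjusted p = 0.0539). It also did not pass with a trended robust prior (adjusted p = 0.12) or with the replicate number as a block (0.98, adjusted p = 0.0516). Without 1 array the rise was 0.73 to 1.40. The Jijing88 fall of NIA1 (-0.60) did not pass with only the groups compared. It was -0.68 to -0.44 without 1 array and -0.32 (K83: -0.96) as the mean of both probe sets. The block also gained GDH2 in Jijing88 (0.75, adjusted p = 0.0255) and AMT1-1 between the genotypes in control (-0.56, adjusted p = 0.0395), and it changed no other call reported for the 27 nitrogen genes.

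Probe sets called for Jijing88 numbered 4790, or 2768 with only the groups compared and 2667 (Jijing88 control replicate 2) to 5464 without 1 array. For K83 they numbered 3700, or 1723 to 4697, with 1723 to 2456 without any 1 of the K83 alkali arrays or K83 control replicate 1 or 2. For the difference between the effects they numbered 371, or 658 with array weights, 635 without dim probe sets, 656 with the trended robust prior and 107 to 646 without 1 array.

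Counts of other nitrogen genes without 1 array were 0 to 2 higher and 1 to 3 lower in Jijing88 (1 lower with only the groups compared), 1 to 2 lower in K83, 0 to 1 higher for the difference (1, GLU, with the trended robust prior), 1 higher in K83 in control (also with array weights, quantile normalization repeated or only the groups compared), and 4 to 8 lower under alkali. Signals below the array medians limit what can be seen for AMT2-2, AMT2-3, the further NIA1 probe set and AMT1-2 in K83.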

Other observations

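The nearest measured genes on either side of each member in the RefSeq assembly were read as well, a comparison added after the data were seen. LOC4339562, 1.64 kb from GLT2, rose by 0.94 in Jijing88 and by 0.58 in K83 (limma, adjusted p = 0.00163 and 0.0347). LOC4339560, on the other side of GLT2, fell by 1.33 and by 0.70 (limma, adjusted p = 7.72e-05 and 0.00865). The neighbours of AMT2-1 were called in neither genotype, with signals averaging 4.58 and 4.57, below the array medians. LOC4334718, 0.123 kb from AMT3-2, fell by 0.52 in Jijing88 (limma, adjusted p = 0.00945), opposite to AMT3-2, and LOC4334716 on its other side was called in neither genotype. Of the neighbours of NIA1, LOC4345793 fell by 0.37 in Jijing88 (limma, adjusted p = 0.0146) and differed by -0.15 in K83 (limma, adjusted p = 0.36). LOC4345797 differed by -0.48 and -0.49, in the direction of NIA1 (limma, adjusted p = 0.0603 and 0.0644).

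GDH2, a glutamate dehydrogenase gene outside the rule for named genes and singled out after its values were seen, has 3 probe sets. They differed by 0.75, 1.29 and 0.90 between media in Jijing88 (limma, adjusted p = 0.0753, 0.142 and 0.0166), and the brightest, from which the gene was read, missed the threshold. In K83 the same probe sets differed by 0.48, 0.66 and 0.40, and none was called (limma, adjusted p = 0.284, 0.517 and 0.313).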
